A study of Mus musculus with 6 samples.

Results

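The CPEB family of translation regulators was examined in pancreatic islet RNA. The family was taken as every row of the deposited gene table whose symbol is CPEB1, CPEB2, CPEB3 or CPEB4. All 4 were present among 13702 genes, and all 4 passed the low-count filter to be among the 2560 genes tested. The family was selected on the read counts of CPEB1 in this same comparison of genotypes, so the counts of its members are a description here and carry no test.

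CPEB proteins bind the cytoplasmic polyadenylation element, a short uridine-rich stretch in the 3′ untranslated region (3′ UTR) of a messenger RNA. There they hold an mRNA silent with a short poly(A) tail, or recruit a poly(A) polymerase so that the tail grows and translation begins. CPEB1 was worked out in frog oocytes and acts at synapses, and in cultured fibroblasts it is needed for senescence. CPEB2, CPEB3 and CPEB4 form a second branch of the family, with related RNA-binding domains and other target preferences.

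Islets came from 12-week-old mice in 2 groups of 3 libraries each. The group called KO was β-PCKO mice, which lack pyruvate carboxylase in β-cells, and the group called WT was their wild-type littermates. Neither the Cre driver, the strain nor the number of animals behind a library is given in the sources used here. Values are reads counted per gene. The rows carry human gene identifiers although the libraries are labelled mouse, so each value counts reads placed on a gene with a human name.

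The libraries were shallow and uneven. Total counts ran from 35906 to 377876 in WT and from 224898 to 225561 in KO. The KO libraries were nearly alike: between a pair of them chi-square per degree of freedom lay at 1.96 to 2.02, where 1 is sampling noise, against 16.5 to 35.1 for WT pairs. Counts of PC, the targeted gene, were 0, 4 and 0 for WT replicates 1 to 3 and 0 for each KO library, which is too few to check the labels. Of 21 islet endocrine markers 9 were listed, and INS, GCG, SST, IAPP and PDX1 were not listed under these names. Of the 9, 5 had no KO count. The listed markers together made up 0.0724%, 0.00820% and 0.0273% of WT replicates 1, 2 and 3 and 0.152% to 0.194% in KO. Most of these counts in each library were of MAFA and NEUROD1. MAFA had 16, 5 and 16 counts in WT and 253, 190 and 227 in KO. NEUROD1 had 9, 16 and 15 in WT and 178, 143 and 128 in KO. WT replicate 2 also held 19.8% of its counts on 15 squamous epithelium markers, against at most 0.156% in any other library, and WT replicate 3 held 0.848% on connective tissue markers, against 0.357% to 0.364% in KO. In bulk RNA, fewer cells of a type and less RNA per cell cannot be told apart.

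The element that CPEB proteins read is shown here for the mouse transcripts of the family itself and for Pan3, which appears in the results below. Each line gives the site closest to the polyadenylation signal, written 5′ to 3′ as DNA, with the element in capitals. The letters searched were TTTTAT and TTTTAAT on the sense strand, in the longest annotated 3′ UTR of each gene (GENCODE M21, GRCm38).
Cpeb1: ttgacttttctTTTTAATttaacgattac
Cpeb2: aatttagtttaTTTTATtgttatcttcc
Cpeb3: gaataaattaaTTTTATgatgctaattc
Cpeb4: ggtaattcattTTTTATtaaagtcattt
Pan3: atagcagtattTTTTAATaaagaattgca

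Every Cpeb 3′ UTR held the element, as did 57% of the 20814 mouse genes with an annotated 3′ UTR. Cpeb1 had 4 matches in 1318 bases, Cpeb2 had 24 in 3781, Cpeb3 had 6 in 3572 and Cpeb4 had 17 in 4105. Their lengths exceed the median 3′ UTR of 968 bases, and a longer sequence holds more matches. None of the 4 had a match within the 100 bases before the polyadenylation signal: the closest lay 229, 136, 205 and 198 bases before it in Cpeb1, Cpeb2, Cpeb3 and Cpeb4. Of 15673 genes with a signal in their last 50 bases, 16.3% had a match in that window. The signal was taken as the last AATAAA or ATTAAA in the last 50 bases. Pan3 had a match 20 bases before that last signal. Its printed line also holds an earlier AATAAA that overlaps the element itself, so the distance depends on which signal is used. A match is a description of letters and not a tested binding site.

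**Figure D1:**
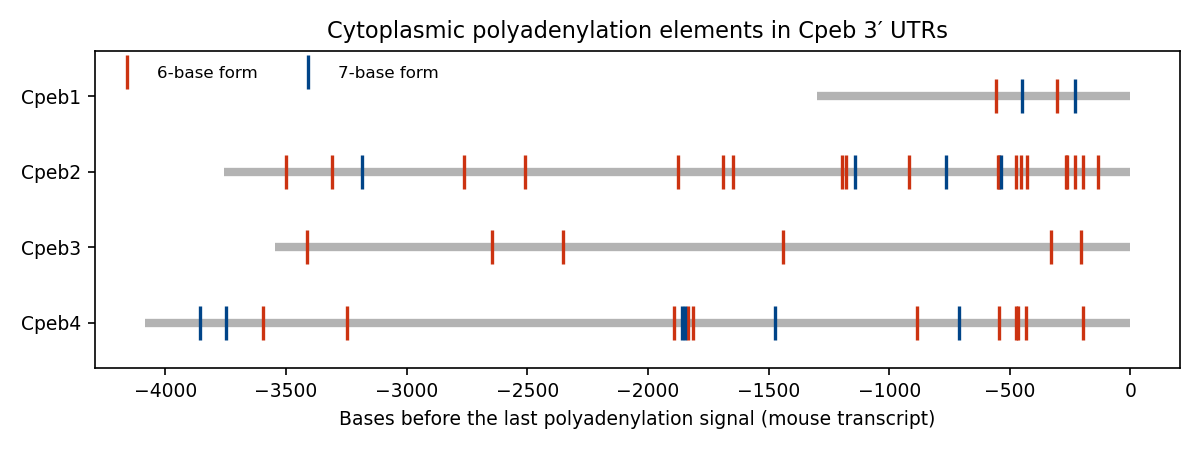
Positions of the cytoplasmic polyadenylation element along the 3′ UTR of the mouse Cpeb transcripts, in bases before the last polyadenylation signal; grey bars are the 3′ UTRs and ticks are matches to the 6-base and 7-base forms. Matches are densest in Cpeb2 (24) and Cpeb4 (17), and none lies within 100 bases of the signal.

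CPEB1 (ENSG00000214575) was counted in every KO library and in no WT library. It was thus kept by the low-count filter only through its KO counts. It had 0, 0 and 0 counts in WT replicates 1, 2 and 3 and 59, 62 and 59 counts in KO replicates 1, 2 and 3. On library sizes scaled by TMM, which corrects totals for genes that dominate a library, the KO libraries stood at 248, 259 and 247 CPM (counts scaled to a common library size), a mean of 251 ± 6.44 (SD, n = 3). The groups did not overlap. The spread of the KO counts was below the average for counting error (chi-square over degrees of freedom 0.0395). With 3 libraries, counting error can give so low a value, and nothing more is read from it.

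How much higher CPEB1 stood in KO depends on which WT library sets the limit. Taking a count of 0 to allow up to 3 counts, WT replicate 1 could hold up to 77.2 CPM, WT replicate 2 up to 12.0 and WT replicate 3 up to 18.9. With that allowance CPEB1 was at least 3.25-fold higher in KO than in WT replicate 1. It was at least 20.9-fold higher than in WT replicate 2 and at least 13.3-fold higher than in WT replicate 3. Against 3 counts over the WT group as a whole the bound was at least 37.5-fold higher. WT replicate 1 was too shallow to show more: at the KO level it would have held 9.76 counts, against 62.8 and 39.8 in WT replicates 2 and 3. These floors cover the counting error of WT only, and the pooled KO value of 251 CPM was taken as exact. Exact 95% intervals allow more, up to 94.9, 14.75 and 23.3 CPM in WT replicates 1, 2 and 3, so the bounds would be lower with them. WT replicates 2 and 3 are also the libraries with high squamous and connective tissue counts, and the part of those counts in the bound was not tested.

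CPEB2 (ENSG00000137449), which slows translation elongation in cultured cells, also stood higher in every KO library. Its counts were 11, 43 and 13 in WT replicates 1 to 3 and 168, 117 and 118 in KO replicates 1 to 3. In CPM these were 283, 172 and 82.1 in WT and 707, 488 and 494 in KO, means of 179 ± 101 and 563 ± 125 (SD, n = 3 each). The groups did not overlap on either scale. KO replicate 1 stood above the other KO libraries, and CPEB2 was the member whose KO counts spread most beyond counting error (chi-square over degrees of freedom 6.59). The fitted log2 fold change, KO minus WT, was 1.72 ± 0.57 (SE).

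CPEB4 (ENSG00000113742), which controls translation in the unfolded protein response of mouse liver, gave 118, 93 and 108 counts over WT replicates 1 to 3. In KO it gave 491, 466 and 514. In CPM it stood at 3036, 372 and 682 in WT and 2065, 1943 and 2150 in KO. WT replicate 1 was thus above every KO library and WT replicates 2 and 3 were below them, so that the groups overlapped. The means were 1363 ± 1457 in WT and 2053 ± 104 in KO (SD, n = 3 each). The fitted log2 fold change was 0.62 ± 0.77 (SE). It was 2.43 with WT replicate 1 left out, and −0.49 when that library was the only WT one.

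CPEB3 (ENSG00000107864), a synaptic translation repressor linked to memory in mice, had fewer KO counts than the other members. Its counts were 20, 13 and 15 over WT replicates 1 to 3, and 33, 29 and 31 in KO. In CPM it stood at 515, 52.0 and 94.7 in WT and 139, 121 and 130 in KO. The raw counts were higher in every KO library, whereas on the scaled values WT replicate 1 lay above KO and WT replicates 2 and 3 lay below it. The fitted log2 fold change was −0.61 ± 0.86 (SE). With WT replicate 1 left out it was 1.30, and with that library as the only WT one −1.91, so no direction is given for CPEB3.

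**Figure D2:**
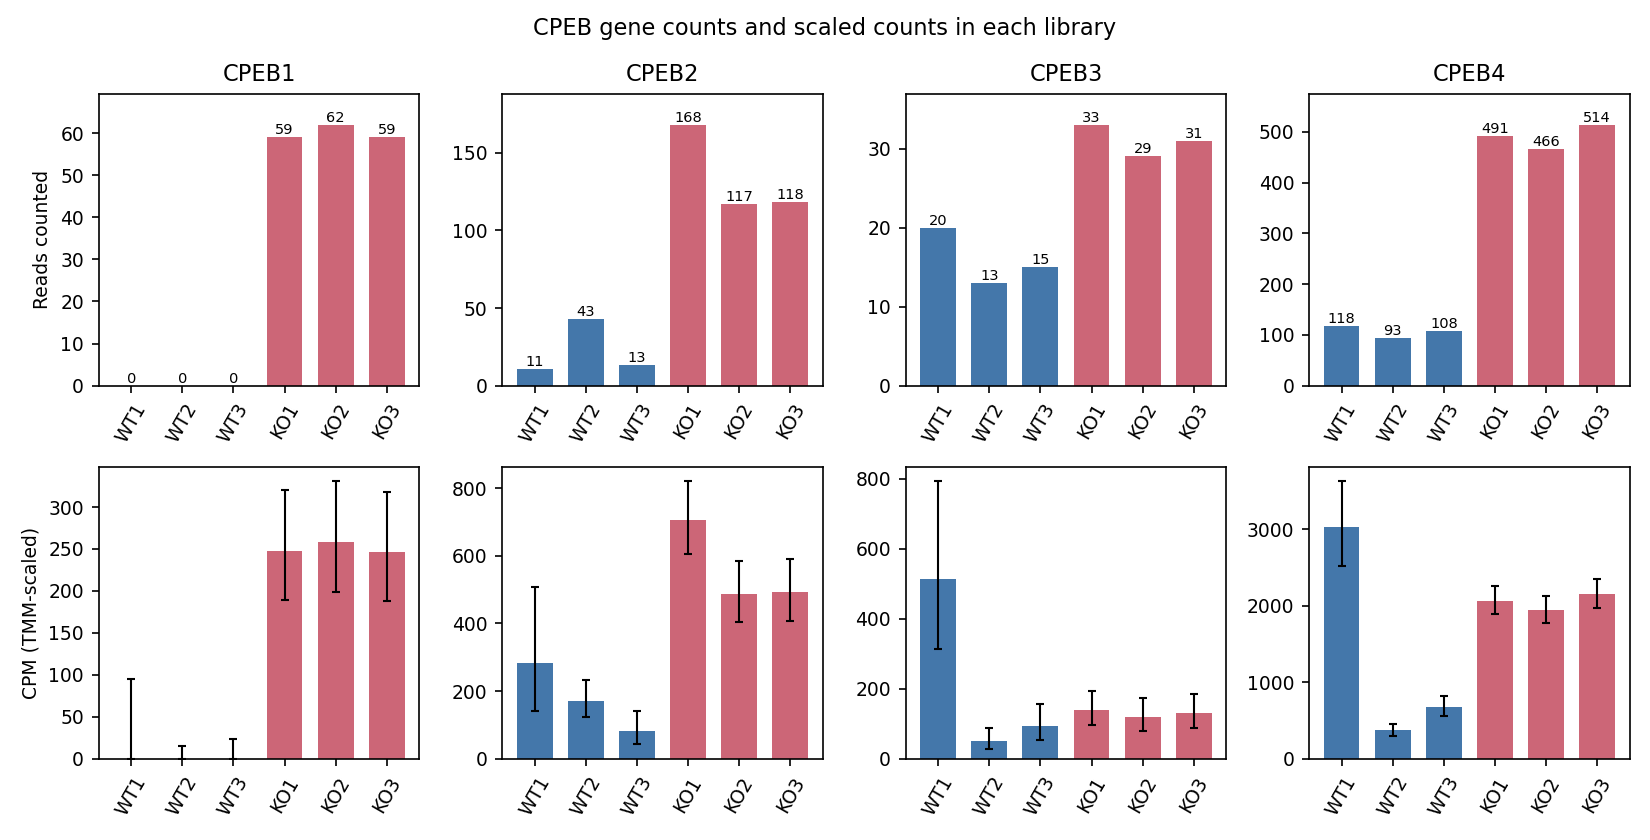
Reads counted (top) and TMM-scaled CPM with exact 95% counting intervals (bottom) for CPEB1 to CPEB4 in each WT (blue) and KO (red) library. CPEB1 is at 0 in all WT libraries and at 59 to 62 counts in KO; CPEB3 and CPEB4 in WT replicate 1 stand above KO once scaled, at 515 and 3036 CPM.

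Every KO library stood above every WT library for 2 of the 4 members, CPEB1 and CPEB2, as it did for 22.6% of the 2560 tested genes. Genes with no WT count and a count in every KO library, as CPEB1 has, made up 0.703% of tested genes. The low-count filter kept such genes only through their KO counts. In the edgeR fit across all genes 8.05% of tested genes passed an adjusted p of 0.05, 5.04% higher and 3.01% lower in KO. Since the members were chosen with this contrast known, nothing is read from their share. The median log2 fold change of all tested genes was −0.14, and its sign turned with the setting: −0.26 with DESeq2 size factors, 0.23 with limma-voom and 0.85 with WT replicate 1 as the only WT library.

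**Figure D3:**
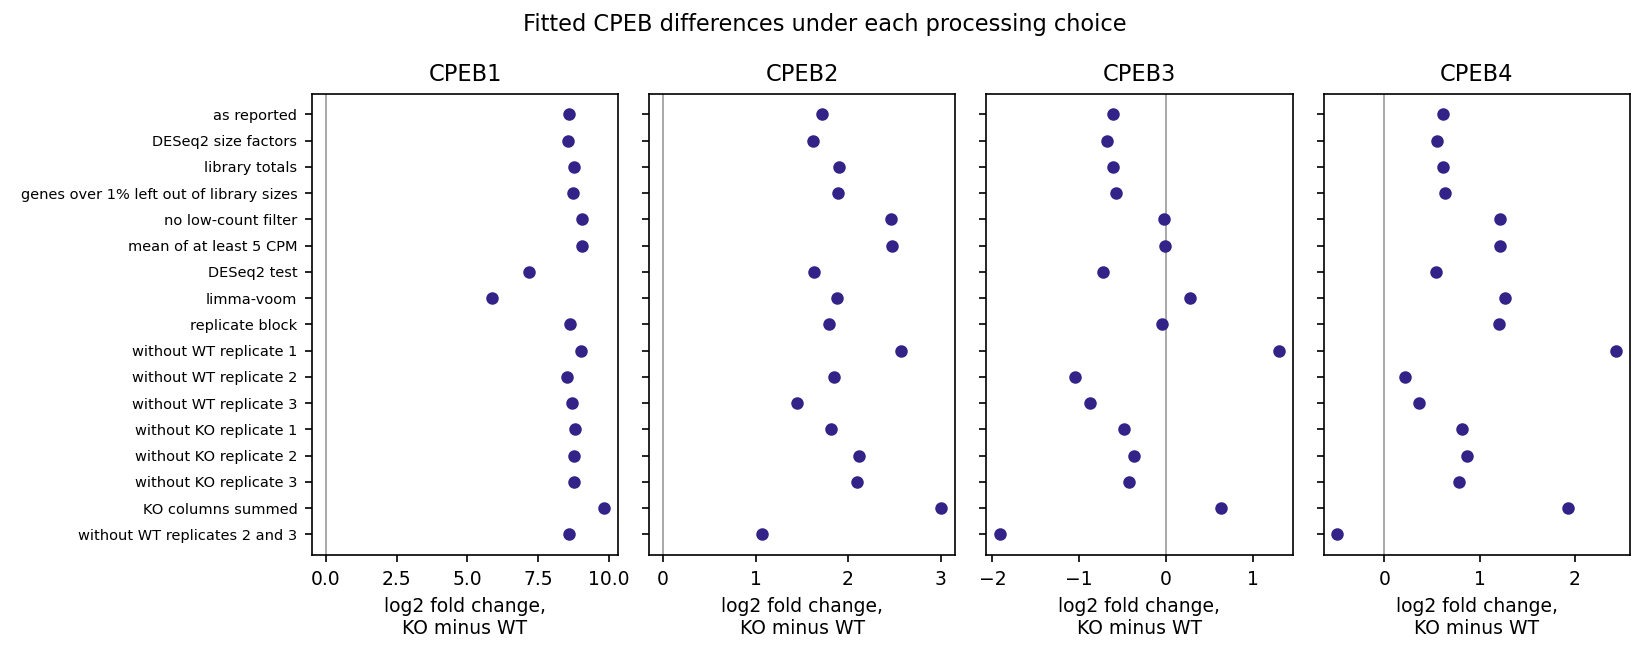
Fitted log2 fold change (KO minus WT) of each CPEB gene under every processing choice, 1 point per choice. CPEB1 and CPEB2 lie above 0 throughout, CPEB4 falls below 0 against WT replicate 1 alone (−0.49), and CPEB3 lies on both sides of 0 (−1.91 to 1.30).

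The division of counts among the 4 genes does not depend on how libraries are scaled. This measure was added after the counts were seen, as were the ratios to CPEB4 given below. For CPEB1 it restates the read counts on which the family was selected. The family held 149, 149 and 136 counts in WT replicates 1 to 3, although the totals of these libraries differ widely, and 751, 674 and 722 in KO. CPEB1 took 7.86%, 9.20% and 8.17% of family counts in KO replicates 1 to 3. In WT it took 0%, which at 3 counts allows up to 2.01%, 2.01% and 2.21% in replicates 1, 2 and 3. Exact 95% intervals allow up to 2.45%, 2.45% and 2.68%. At the pooled KO share of 8.38%, WT replicates 1 to 3 would have held 12.5, 12.5 and 11.4 CPEB1 counts. By this measure the shallow WT replicate 1 would be as informative as the other WT libraries, if CPEB1 follows the family total. That was not tested. The total is mostly CPEB4, which stood at 3036 CPM in WT replicate 1 against 372 and 682 in WT replicates 2 and 3.

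CPEB3 took a smaller part of the division in KO. Its part was 13.4%, 8.72% and 11% of family counts in WT and 4.39%, 4.30% and 4.29% in KO, with no overlap of these values. Exact 95% intervals began at 8.4%, 4.73% and 6.31% in WT and ended at 6.12%, 6.12% and 6.04% in KO. WT replicate 2, on 13 counts, thus overlapped KO. On CPM the groups did not overlap, in either direction, for 34.9% of tested genes. The share of genes for which such parts or ratios separate the groups was not computed. Set against CPEB4 alone, which leaves CPEB1 and CPEB2 out, there were 0.169, 0.140 and 0.139 CPEB3 counts per CPEB4 count in WT and 0.0672, 0.0622 and 0.0603 in KO. CPEB2 per CPEB4 did not separate the groups: the ratio was 0.0932, 0.462 and 0.120 in WT and 0.342, 0.251 and 0.230 in KO. CPEB4 took the most family counts in each library, 79.2%, 62.4% and 79.4% for WT replicates 1 to 3 and 65.4% to 71.2% for KO. The counts are not per length, so these shares do not rank the genes by level.

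**Figure D4:**
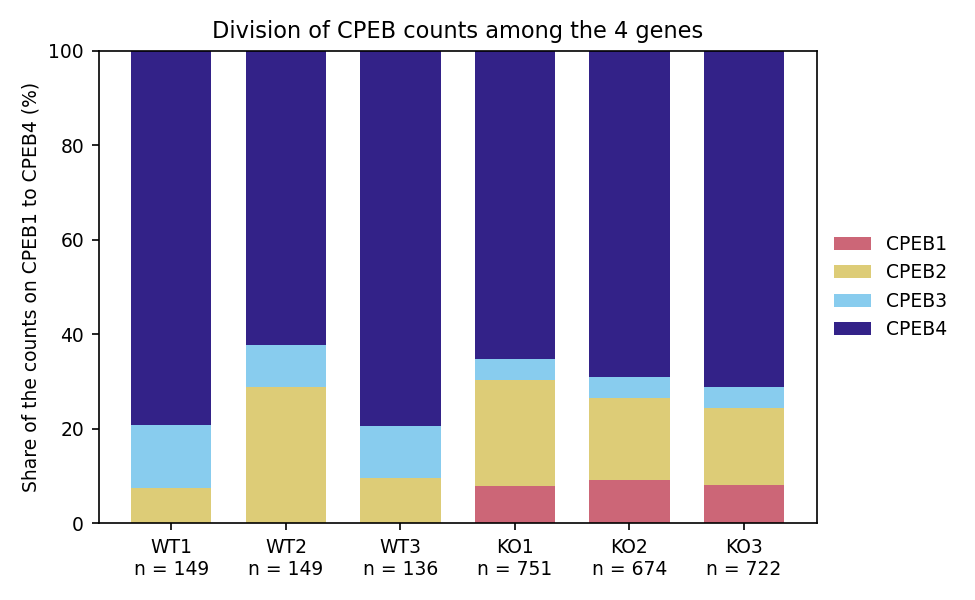
Share of the reads counted on CPEB1 to CPEB4 that each gene took, per library, with the number of reads under each bar. CPEB1 takes 7.86% to 9.20% in KO and 0% in WT, and CPEB3 takes 4.29% to 4.39% in KO against 8.72% to 13.4% in WT.

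Raw counts of CPEB4 and CPEB3 were alike in the WT libraries despite their unequal totals. The highest WT count was 1.27 times the lowest for CPEB4 and 1.54 times for CPEB3, against 3.91 times for CPEB2. Among the 57 genes with at least 100 counts in WT replicate 1, 43.9% stayed within 1.5-fold across the WT libraries and 77.2% within 2-fold. CPEB4 belongs to these genes. CPEB3, with 20 counts there, belongs to the wider set of 706 genes with at least 10 counts in WT replicate 1, of which 8.64% stayed within 1.5-fold and 26.3% within 2-fold. With alike counts over unequal totals, the scaled value of CPEB4 was highest in the smallest WT library (3036 CPM) and lowest in the biggest (372 CPM).

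The genes whose pattern was most like that of CPEB1 were mostly others with no WT count. Like CPEB1, those were kept by the low-count filter only through their KO counts. Likeness was Pearson's r of log2 CPM over the 6 libraries, which the gap between the groups dominates, and 31 of 2559 genes reached 0.99. The 8 most alike were OLFM1, NEFM, MYEF2, EYS, DTX3, GATAD2B, MYH4 and GUCY1A3. OLFM1, which encodes a secreted protein of neurons, had 0 counts in WT and 21, 20 and 19 in KO (r = 0.9997). NEFM, a neurofilament gene, had 0 in WT and 51, 47 and 45 in KO (r = 0.9996). MYH4 had 0, 1 and 0 counts in WT and 112, 94 and 118 in KO, and GUCY1A3 had 0, 1 and 0 against 82, 109 and 112. Both were also kept by the low-count filter only through their KO counts. GATAD2B, a subunit of a chromatin remodelling complex, was the exception with counts in all WT libraries, 4, 22 and 14 against 128, 139 and 137. Within the family r with CPEB1 was 0.859 for CPEB2, 0.541 for CPEB4 and −0.059 for CPEB3.

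Markers of other cells that use CPEB1 were read beside it. Of 15 neuron markers 8 were listed, with NEFL, STMN2 and TUBB3 not listed under these names. Together they made up 0.326%, 0.0254% and 0.118% of WT replicates 1, 2 and 3 and 0.280% to 0.327% of the KO libraries, with WT replicate 1 inside the KO range. NEFM, given above, and GRIN1, with 1, 0 and 1 counts in WT and 55, 46 and 76 in KO, were higher in KO, and both were kept by the low-count filter only through their KO counts. SNAP25 had 42, 28 and 93 counts in WT and 291, 381 and 327 in KO. ELAVL4 had 40, 4 and 24 against 202, 223 and 211, and MAP2 had 14, 49 and 23 against 31, 35 and 43. The log2 fold changes of SNAP25, ELAVL4 and MAP2 were 1.27, 1.27 and −0.57, and none of them passed in edgeR. SYN1 had 19, 10 and 2 counts in WT and 0, 3 and 4 in KO, SYT1 had 0, 5 and 17 against 1, 0 and 0, and RBFOX3 had 1, 0 and 0 against 0 throughout. Of 12 oocyte markers only 2 were listed, BMP15 and GDF9, and these had 0 counts in KO. Of 17 pituitary markers 6 were listed, and GH1 alone had KO counts, 7123 to 7285 per library. The part of these genes in the CPEB1 counts was not tested.

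Genes of the machinery around CPEB proteins, mRNAs reported as CPEB1 targets and other RNA-binding regulators were read against all tested genes. Most of them did not pass the test, and neither did 2354 of all 2560 tested genes. Over these 5 lists 65 were tested, 2 rose (CAMK2B and PAN3), 2 fell (ZFP36L1 and CAPRIN2, both of the list of other regulators) and 61 did not pass, by edgeR's quasi-likelihood test with adjustment over all 2560 genes. The share called, 5.04% higher and 3.01% lower over all tested genes, is the background for these counts and for those of each list below. The median log2 fold change of the 65 was 0.56, against −0.14 for all tested genes. The order of these medians depended on WT replicate 1: they were 1.29 and −0.26 with it left out, and 0.06 and 0.85 with it as the only WT library. KO stood above WT with no overlap for 14 of the 65 and below it for 6, against 22.6% and 12.3% of all tested genes. The number called rested on single libraries, and so did the number over all genes. With WT replicate 1 left out it was 42 of 71 tested (36 higher, 6 lower). In that fit 1527 of all 3279 tested genes were called (816 higher, 711 lower). With WT replicate 2 left out it was 1 of 70, and 11 of 2780 over all genes. With any single KO library left out it was 0, and 3 to 16 over all genes.

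In the polyadenylation machinery, 0 of 7 tested genes passed in edgeR (17 listed). The median log2 fold change was 0.06. PAPD4, the poly(A) polymerase GLD2 that CPEB1 recruits, had 5, 42 and 34 counts in WT and 7, 5 and 13 in KO. Every KO value lay below every WT value once scaled (WT 170 ± 43.0, KO 34.9 ± 17.4 CPM, SD, n = 3 each), as for 12.3% of tested genes. The edgeR adjusted p was 0.0623. PAPD4 passed the low-count filter only through its WT counts. DESeq2 and limma-voom called it lower, as they did 236 and 94 of the 2560 tested genes. PAPD5, a related polymerase, had 3, 16 and 11 counts in WT and 65, 46 and 58 in KO (adjusted p 0.0900 in edgeR). CPSF2 and WDR33, subunits of the factor that reads the polyadenylation signal, had log2 fold changes of −1.58 and 0.79 (adjusted p 0.184 and 0.306 in edgeR). PARN, the deadenylase that opposes GLD2 in frog oocytes, had 0, 14 and 25 counts in WT and 9, 3 and 1 in KO, too few to be tested.

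Among cap-binding and deadenylation factors, 1 of 16 tested genes rose and 15 did not pass, with a median log2 fold change of 0.53. PAN3, a subunit of the PAN2-PAN3 deadenylase, had 6, 60 and 38 counts in WT and 204, 175 and 177 in KO. It stood at 211 ± 49.4 CPM in WT and 776 ± 71.2 in KO (SD, n = 3), higher in 3 of 3 KO libraries, with a log2 fold change of 1.84 ± 0.46 (SE; edgeR adjusted p 0.0449). The call did not hold on library totals, when WT replicate 2 or any single KO library was dropped, or when the KO columns were summed (adjusted p 0.0524 to 0.804 in edgeR). EIF4E, the cap-binding protein that CPEB-bound factors hold back, stood at 213 ± 84.6 CPM in WT and 62.9 ± 23.6 in KO. Its adjusted p was 0.128 in edgeR. DESeq2 called EIF4E lower, as it did 236 of the 2560 tested genes. EIF4E2, a competing cap-binding protein, had 1, 20 and 0 counts in WT and 51 in each KO library (adjusted p 0.142), and CNOT7, a deadenylase subunit, had an adjusted p of 0.296 in edgeR.

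Among kinases and other modifiers of CPEB proteins, 1 of 12 tested genes rose and 11 did not pass, with a median log2 fold change of 0.53. CAMK2B, a subunit of the calcium-dependent kinase that phosphorylates CPEB1 in neurons, had 2, 1 and 0 counts in WT and 48, 66 and 38 in KO. It stood at 18.5 ± 28.6 CPM in WT and 212 ± 58.8 in KO (SD, n = 3 each), with a log2 fold change of 4.57 ± 1.13 (SE; edgeR adjusted p 0.0449). The log2 fold change was 6.57 with WT replicate 1 left out and 2.10 with it as the only WT library. The gene was kept by the low-count filter only through its KO counts. The call did not hold when WT replicate 2, WT replicate 3, both of these or any single KO library was dropped, or when the KO columns were summed (adjusted p 0.0650 to 0.550 in edgeR). RPS6KA3 and PUM2, the second an RNA-binding partner of CPEB1, had adjusted p of 0.0856 and 0.367 in edgeR. AURKA and CAMK2A, other kinases of CPEB1, were not listed under these names.

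Of mRNAs reported elsewhere as CPEB1 targets, 0 of 6 tested passed in edgeR, with a median log2 fold change of −0.55. Counts measure RNA level, and neither tail length nor translation was measured. MYC had 0, 13 and 0 counts in WT and 1, 0 and 2 in KO, too few to be tested. STAT3 had 4, 57 and 21 counts in WT and 7, 8 and 13 in KO, with an adjusted p of 0.0845 in edgeR. In KO it stood below every WT library once scaled, as did 12.3% of tested genes. The low-count filter kept it only through its WT counts. DESeq2 called STAT3 lower, as it did 236 of the 2560 tested genes. HIF1A and MAP2 had adjusted p of 0.309 and 0.528.

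Among other RNA-binding regulators of mRNA fate, 0 of 24 tested genes rose, 2 fell and 22 did not pass in edgeR, with a median log2 fold change of 0.73. ZFP36L1, which promotes mRNA decay, had 29, 81 and 113 counts in WT against 14, 14 and 17 in KO. On the log2 scale it fell by 3.22 ± 0.56 (SE; adjusted p 0.0237, edgeR). CAPRIN2, which encodes an RNA-binding protein, had 2, 32 and 23 counts in WT against 1, 0 and 3 in KO. On the log2 scale it fell by 4.22 ± 0.89 (SE; adjusted p 0.0279, edgeR), and it was kept by the low-count filter only through its WT counts. Neither call held when any single KO library was dropped, when the KO columns were summed, or under either other filter, and CAPRIN2 was also lost when WT replicate 2 was dropped (adjusted p 0.0596 in edgeR). PTBP3 and STAU1 had adjusted p of 0.156 and 0.157 in edgeR.

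**Figure D5:**
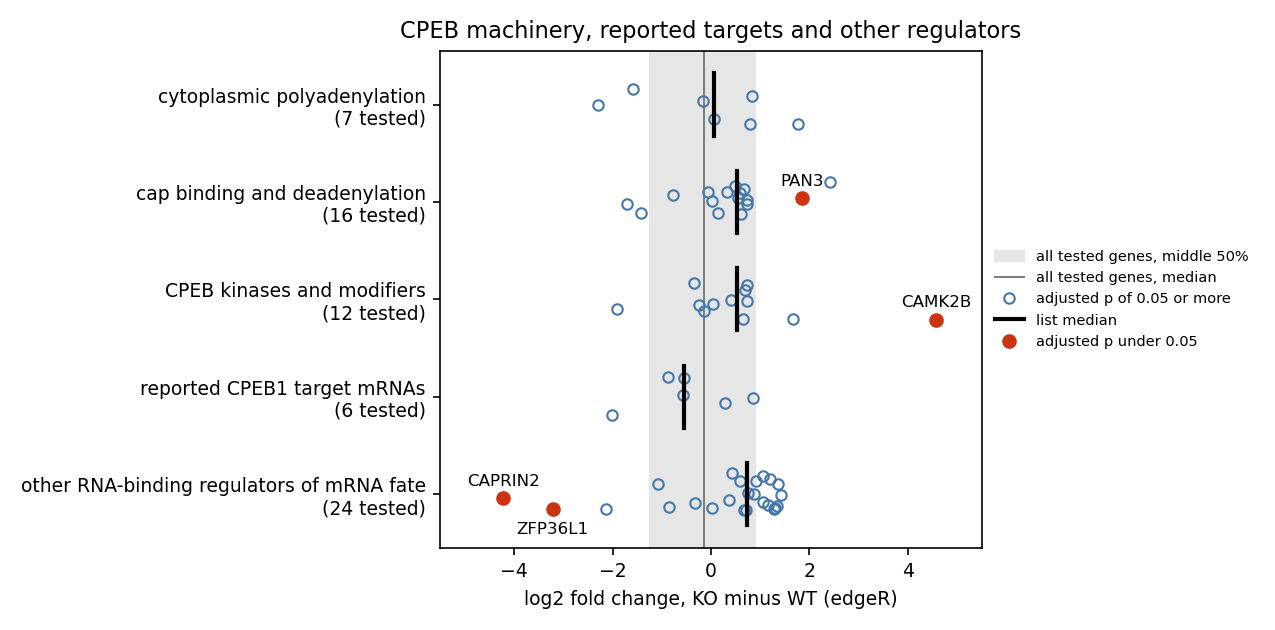
Log2 fold change (KO minus WT, edgeR) of each tested gene in the 5 lists; filled points passed an adjusted p of 0.05, black bars are list medians, and the grey line and band are the median and middle 50% of all tested genes. The 4 filled points are PAN3 (1.84), CAMK2B (4.57), ZFP36L1 (−3.22) and CAPRIN2 (−4.22).

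The mouse promoters of Cpeb1 and Cpeb4 are shown because CPEB1 was at 0 in WT and CPEB4 had 93 to 118 counts there. RefSeq promoters were matched for 3 of the 4 members, Cpeb1, Cpeb3 and Cpeb4. Each is the RefSeq (GRCm38.p6) sequence from 250 bases before the start of the gene, on its own strand, with matches in capitals. Core promoter motifs were searched on both strands. The box bound by TBP was searched as TATAA, the Sp1 site as GGGCGG, the E-box as CACGTG and the ETS-family site as CCGGAAGT. The cyclic AMP response element was searched as TGACGTCA, and the NF-Y site as CCAAT.
Cpeb1, chr7:81454709-81455008, minus strand: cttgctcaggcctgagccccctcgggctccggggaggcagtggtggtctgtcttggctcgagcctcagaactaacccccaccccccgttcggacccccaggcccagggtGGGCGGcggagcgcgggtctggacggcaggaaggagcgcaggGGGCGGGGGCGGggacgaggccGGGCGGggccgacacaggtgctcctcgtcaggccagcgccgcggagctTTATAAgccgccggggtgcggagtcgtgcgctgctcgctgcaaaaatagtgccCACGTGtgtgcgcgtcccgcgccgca
Cpeb4, chr11:31870690-31870989, plus strand: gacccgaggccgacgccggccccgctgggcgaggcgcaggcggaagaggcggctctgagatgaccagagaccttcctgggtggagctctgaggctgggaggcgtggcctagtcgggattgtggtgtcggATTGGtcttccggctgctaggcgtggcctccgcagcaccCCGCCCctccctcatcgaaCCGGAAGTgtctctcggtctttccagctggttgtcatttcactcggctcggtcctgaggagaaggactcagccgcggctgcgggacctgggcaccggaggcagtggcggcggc

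The Cpeb1 promoter matched TATAA on both strands at overlapping positions, 222 and 223 from the 5′ end of the window, GGGCGG 4 times with no overlap and CACGTG once, at 275. The Cpeb4 promoter matched CCAAT at 130, GGGCGG at 169 and CCGGAAGT at 188, each once. Over 32841 promoters of this length the shares with a match were 24.9% for TATAA, 35.7% for GGGCGG, 7.15% for CACGTG, 3.89% for CCGGAAGT, 1.79% for TGACGTCA and 37.4% for CCAAT. The promoters were 72.7% and 68.3% G and C for Cpeb1 and Cpeb4, against a median of 52.7%. The libraries hold no measurement of promoter activity.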

How the data were processed

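The deposited table holds the number of reads on each gene in each library as whole counts, per the file headers not yet normalized. A further 6 columns that repeat the library names hold values normalized by the authors and were not used. Tools listed in the submitters' processing notes, without their roles, are HTSeq 0.9.1, HISAT2 2.0.4, edgeR 3.16.5 and cutadapt 1.9.3, and mm10 is the build they list. Of the row identifiers, 0 are in the mouse gene table, and the sources used here do not say how reads reached human names. A single row (1) with no identifier and no values was left out. Libraries were grouped by their titles, and since no label says that they came from separate animals, p-values measure only the spread between libraries, which may be technical.

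The main test was edgeR's quasi-likelihood F test (edgeR 4.0.16, R 4.3.3) with filterByExpr, TMM scaling, a model on genotype and Benjamini-Hochberg adjustment over all 2560 genes at 0.05. The code was tested on simulated data. Alternatives were other scalings and filters, DESeq2 1.42.0, limma-voom (limma 3.58.1), the replicate number as a block, each library left out, the KO columns summed, and WT replicate 1 as the only WT library. Members, gene lists and the naming rule (the 4 tested genes of each list with the smallest p, plus EIF4E and MYC, and the 8 tested genes most like CPEB1 by Pearson's r) were chosen with earlier results of these data known. Some genes that the rule names are not reported here. Other genes named for a count or as markers were chosen after their values were seen. Counting intervals are 95% Clopper-Pearson (exact), and a count of 0 was taken to allow 3.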

Additional observations from a re-analysis of the deposited data

How the results depend on the processing

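The count of genes changed, 206, was kept within 1.5 times with DESeq2 size factors, library totals, genes over 1% left out of the library sizes, and without WT replicate 3. It was 439 with every counted gene kept, 385 when a mean of 5 CPM was asked for, 447 with DESeq2, 312 with limma-voom, 137 with the replicate block, 0 with the KO columns summed (by edgeR, where 301 had an unadjusted p under 0.05) and 766 against WT replicate 1 alone, and ran from 3 to 1527 with 1 library left out. For the 5 lists the count, 4, was 7 with DESeq2, 0 with the KO columns summed and 19 against WT replicate 1 alone, and 0 to 42 with 1 library left out. The fitted log2 fold change of CPEB1, 8.61, depends on the prior count and is no bound. It was 8.56 with DESeq2 size factors, 8.77 with library totals, 8.73 without genes over 1%, 9.05 without a filter, 9.07 at a mean of 5 CPM, 7.19 with DESeq2, 5.87 with limma-voom, 9.84 with the KO columns summed, 8.58 against WT replicate 1 alone, and 8.54 to 9.01 with 1 library left out. CPEB2 stood at 2.46 without a filter, 2.48 at a mean of 5 CPM, 3.01 with the KO columns summed and 1.07 against WT replicate 1 alone (1.45 to 2.57 with 1 library left out). CPEB3 and CPEB4 were 0.63 and 1.93 with the KO columns summed and −1.91 and −0.49 against WT replicate 1 alone, and −1.05 to 1.30 and 0.22 to 2.43 with 1 library left out. The cause of these shifts was not tested. Summing the KO columns, or keeping WT replicate 1 alone, sets 1 library against 3 and assumes that it varies like the other group.

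With genes over 1% left out of the totals, the mean KO share of pituitary markers went from 3.19% to 0%, since GH1 is itself over 1%, and that of neuron markers from 0.307% to 0.344%. Replicate numbers did not pair the libraries: deviations of same-numbered libraries correlated at −0.002, −0.015 and 0.019, and no label links them. With the replicate block PAN3 had an adjusted p of 0.116 in edgeR, and the other 3 list calls held. WT replicate 1, at 35906 counts, limits what can be said of any gene near its floor.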

Other observations

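Genes whose mouse mRNA carries a cytoplasmic polyadenylation element shortly before its signal were counted among the tested genes. Of 2363 tested genes matched by symbol to a mouse 3′ UTR, 1960 had a polyadenylation signal in the last 50 bases. Of 436 with an element in the 100 bases before the signal, 3.67% were higher and 3.21% lower in KO in edgeR, with a median log2 fold change of −0.34. Of the 1524 without one, 5.45% were higher and 2.95% lower, with a median of −0.09. The difference between these groups was not tested.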
